A study of Homo sapiens with 38 samples.

Results

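Small extracellular vesicles of HL60 cells were the source of the 6 libraries described here, of 38 in the series. HL60 is an established human acute myeloid leukaemia line with promyelocytic features, labelled wild type. All 6 came from vesicles of cells kept in medium without serum for 2 days. In 3 libraries the RNA was the total vesicle RNA. In the other 3 it was the RNA enriched as glycoRNA by rPAL, and all 6 were sequenced as small RNA libraries. The libraries were chosen by their titles, and the comparison asked which RNA was over- or under-represented after enrichment. The labels do not say that replicates came from separate cultures, so p-values measure the spread between these libraries, which may be technical. Vesicle preparations hold RNA from many vesicles, so fewer vesicles carrying an RNA and less of it per vesicle cannot be told apart.

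GlycoRNA is RNA that carries sialylated glycans. In rPAL, mild periodate oxidizes sialic acids to aldehydes, which are ligated to an affinity handle so that the labelled RNA can be pulled down. Small vesicles include exosomes, and their RNA is known to be rich in fragments of tRNA, rRNA, Y RNA and microRNA. The small nuclear RNAs U4 and U5 are spliceosome components that carry an Sm site, a short U-rich stretch bound by the ring of Sm proteins. Y RNAs are short hairpin RNAs bound by Ro60 and La, and C/D snoRNAs guide 2′-O-methylation of rRNA through their C and D boxes.

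The sequences below belong to RNAs that fell most on rPAL, or to their closest relatives. They are GENCODE 29 transcripts on GRCh38, written as DNA 5′ to 3′. For U4 the capitals mark the letters AATTTTTG at the Sm site. On the transcript strand, 70 of 1900 annotated snRNA transcripts (3.68%) hold this motif. RNU4-2 lies at chr12:120291763-120291903 on the minus strand and RNU4-1 at chr12:120293097-120293237 on the minus strand.
RNU4-2: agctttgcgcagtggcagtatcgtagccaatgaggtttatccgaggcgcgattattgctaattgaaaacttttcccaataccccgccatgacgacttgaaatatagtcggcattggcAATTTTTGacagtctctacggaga
RNU4-1: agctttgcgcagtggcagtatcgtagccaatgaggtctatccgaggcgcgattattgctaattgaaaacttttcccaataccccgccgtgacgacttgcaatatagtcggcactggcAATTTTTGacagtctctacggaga
Both U4 genes are 141 bases long and 97.16% identical. They differ at 4 positions, counted from 1 at the 5′ end with RNU4-2 first, which are T37C, A88G, A99C and T113C. Short reads of U4 outside these positions cannot be assigned to 1 of the 2 genes. SNORD14E lies at chr11:123058077-123058161 on the minus strand, inside HSPA8. Capitals mark its C box letters TGATGA and its D box letters CTGA, both of which are present in 320 of 955 annotated snoRNA transcripts (33.5%).
SNORD14E: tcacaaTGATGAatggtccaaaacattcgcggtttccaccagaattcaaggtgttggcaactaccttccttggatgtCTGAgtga
RNY1 at chr7:148987136-148987248 on the minus strand and RNY4 at chr7:148963315-148963410 on the plus strand are genes of the Y RNA family. No letters are marked in them.
RNY1: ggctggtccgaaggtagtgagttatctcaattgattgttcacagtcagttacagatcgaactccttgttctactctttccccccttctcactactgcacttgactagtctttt
RNY4: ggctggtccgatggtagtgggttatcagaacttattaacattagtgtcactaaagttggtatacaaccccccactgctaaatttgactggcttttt

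The total RNA libraries held 5498168, 8345900 and 10408586 counts, and the rPAL libraries 3956676, 3383583 and 2380745. At an equal depth of 2380745 counts, 17596 to 21510 features had a count in total RNA and 8283 to 13850 on rPAL. The 10 most abundant features took 41.81% to 43.07% of counts in total RNA and 71.84% to 81.1% on rPAL. Replicates agreed less on rPAL. Spearman's rho across features was 0.605 to 0.798 between total RNA libraries and 0.208 to 0.287 between rPAL libraries, as a description across the 418 to 601 features of a pair with a mean of at least 50 CPM (counts scaled to a common library total; 10 CPM is 0.001% of a library). Of 12 promyelocytic markers 11 had a count in total RNA (PRTN3 was at 0), with a summed level of 13.3 to 17.3 CPM, and 4 had one on rPAL, with a summed level of 0.42 to 55.9 CPM. ALB, HBB, HBA1, HBA2 and HBG1 were at 0 in all 6 libraries, and summed erythroid or plasma markers reached 0.728 CPM in total RNA and 0.42 CPM on rPAL. That list does not hold HP or CRP, genes of plasma proteins that rose on rPAL and are described below. In rPAL replicate 2 the PCNA entry took 40.06% of the counts, so results are given with and without that library.

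Of 3619 features tested, 681 passed an edgeR adjusted p under 0.05 (18.8%). Of these, 91 were higher on rPAL (2.51% of features tested) and 590 were lower (16.3%), and 359 of the 590 had no rPAL count at all. The groups did not overlap, with rPAL higher, for 337 features (9.31%) and, with rPAL lower, for 965 (26.7%). The median log2 fold change over all features tested was -0.12. Without rPAL replicate 2, edgeR called 149 of 5743 features (2.59%), 18 higher (0.313%) and 131 lower (2.28%). All 149 were among the 681, and all 681 had the same direction in both fits. Over all 3619 features the sign of the fold change differed between the fits for 419, none of them called. Leaving out each of the 6 libraries in turn gave 149 to 377 calls, and 137 features were called in every one of these fits and with all libraries, 9 higher and 128 lower. The 9 included LINC01766, AL391684.1, GRTP1, HP, TMUB2, ZDHHC3, LINC01780 and OXCT1-AS1. AL391684.1 and LINC01766 kept a nearly fixed ratio over 19 rPAL libraries of the series (SD 0.236 on the log2 scale). ZDHHC3 and LINC01780 did so too (SD 0.0435), so the 9 may not be separate observations. Of the 128, precursor miRNA, ncRNA and mature miRNA entries made up 47, 36 and 12. These classes held 163, 121 and 112 of the 3619 features tested, and some of their entries have near-equal counts.

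**Figure D1:**
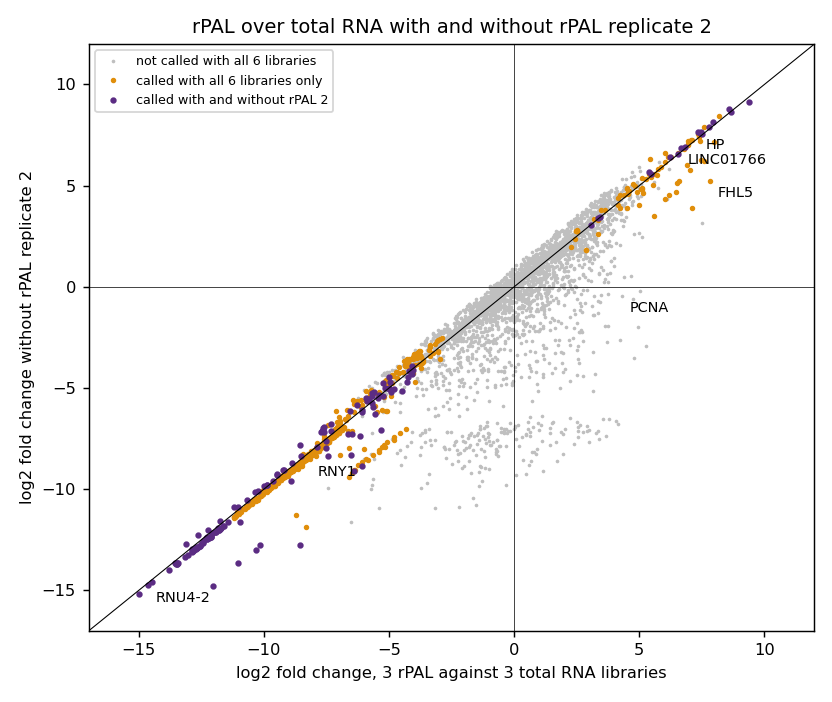
Log2 fold change of rPAL over total RNA with all 6 libraries (x axis) and without rPAL replicate 2 (y axis), 1 point for each of the 3619 features. The line marks equal values, the 149 features called both ways have the same sign in both fits, and PCNA lies at 4.32 and -0.46.

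Ribosomal RNA was the class with the largest difference in share. It made up 14.1%, 29.9% and 18.1% of counts in total RNA and 56.9%, 35.4% and 60.4% on rPAL, so the groups did not overlap. The means were 20.7% ± 8.22 and 50.9% ± 13.6 (SD, n = 3 each), a difference of 30.2 points with an exact permutation p of 0.1, the smallest that 3 against 3 libraries can give. Without rPAL replicate 2 the rPAL mean was 58.7% (exact permutation p of 0.2, the smallest for 2 against 3). With PCNA left out of the totals the 3 rPAL libraries stood at 56.96%, 58.97% and 61.28%.

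A pair of entries held most of the rRNA on rPAL, while 27 of 46 rRNA entries tested fell. The entries URS0002340650 and URS000234028B, known here only by RNAcentral identifier, held 3.66%, 6.25% and 2.84% of counts in total RNA and 46.3%, 29.6% and 47.3% on rPAL. Their log2 fold changes were 3.05 ± 0.56 (SE) and 3.41 ± 0.57, with edgeR adjusted p of 0.0112 and 0.00736, and 0.0237 and 0.0161 without rPAL replicate 2. The call of URS0002340650 was lost without rPAL replicate 3, total replicate 1 and total replicate 3 (edgeR adjusted p 0.0613, 0.0739 and 0.154), and that of URS000234028B without total replicate 3 (0.0874). Their ratio hardly varied over 19 rPAL libraries of the series (SD 0.152 on the log2 scale), and their sharing of reads was not tested. The other 75 rRNA entries together held 16.45% ± 6.69 in total RNA and 9.82% ± 3.75 on rPAL (SD, n = 3 each), with overlapping libraries. Of the 46 tested, 2 rose and 27 fell by edgeR, against 2.51% higher and 16.3% lower among all features, and 2 rose and 1 fell without rPAL replicate 2 (0.313% and 2.28%), with a median log2 fold change of -3.79. The annotated 5.8S genes, the short rRNA that pairs with 28S rRNA, held 3.64%, 8.17% and 7.31% in total RNA and 0.758%, 0.655% and 3.36% on rPAL, without overlap. Their 8 entries have near-equal counts in every library, so this sum may count the same reads more than once. RNA5-8SN4, taken from them, was not called (edgeR adjusted p 0.0808, and 0.189 without rPAL replicate 2). The 5S genes and pseudogenes held 0.265% to 0.897% in total RNA and 0.0254% to 0.108% on rPAL, again without overlap. Another abundant rRNA entry was not called (log2 fold change -0.10 ± 0.58 SE, edgeR adjusted p 0.928), at 55905, 127970 and 52803 CPM in total RNA and 96658, 48705 and 87921 CPM on rPAL.

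RNase P RNA, the catalytic RNA that trims the 5′ end of tRNA precursors, was the other small RNA class with a higher share in every rPAL library. Its only entry stood at 517, 316 and 567 CPM in total RNA and 8879, 2445 and 3344 CPM on rPAL, with every rPAL library above every total library. The log2 fold change was 3.34 ± 0.77 (SE), with an edgeR adjusted p of 0.0286, and 3.41 without rPAL replicate 2 (adjusted p 0.0321). The call was lost in the other 5 fits that left out a library, with edgeR adjusted p of 0.0613 without rPAL replicate 3 to 0.184 without total replicate 2. As a share of the library this was 10.5-fold higher, or 13.1-fold without rPAL replicate 2. The RNase P gene RPPH1 itself was listed at 0 in all 6 libraries. The RNA of the signal recognition particle, which directs ribosomes to the endoplasmic reticulum, overlapped between the groups at 0.0456% ± 0.0186 and 0.0603% ± 0.00416 (SD, n = 3 each), and none of its 7 entries was called.

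**Figure D2:**
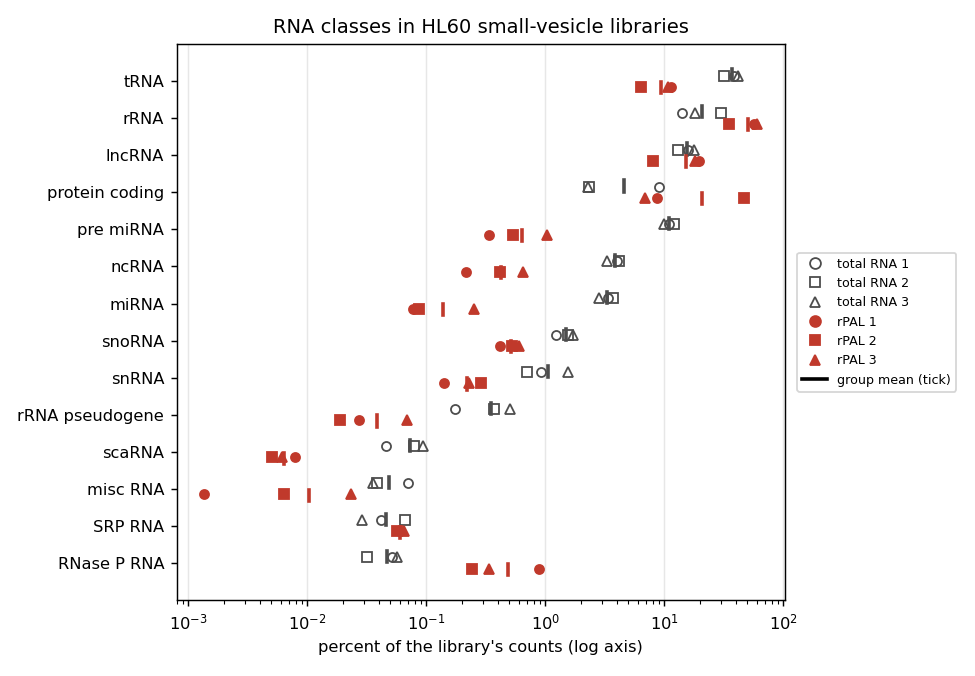
Percent of each library's counts by RNA class on a log axis, with open grey symbols for the 3 total RNA libraries, red symbols for the 3 rPAL libraries and ticks for group means. The rRNA and RNase P shares of all rPAL libraries lie above those of total RNA, and the tRNA, miRNA, snoRNA, snRNA and scaRNA shares lie below.

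Transfer RNA, the most abundant class in total vesicle RNA, had a lower share in every rPAL library. Its share was 39.0%, 31.7% and 41.5% in total RNA and 11.4%, 6.41% and 10.7% on rPAL. The means were 37.4% ± 5.10 and 9.48% ± 2.68 (SD, n = 3 each), 3.94-fold lower with an exact permutation p of 0.1, and 11.01% without rPAL replicate 2. With PCNA left out of the totals the rPAL shares were 11.4%, 10.7% and 10.8%. Few single tRNA entries passed the test, 45 lower (10.9%, against 16.3% of all features) and 1 higher of 411 by edgeR, and their median log2 fold change was -0.75. The abundant ones had unlike values. The entry URS000070B37B stood at 24292, 19074 and 37442 CPM in total RNA and 152, 55.9 and 389.8 CPM on rPAL, a log2 fold change of -7.34 ± 0.94 (SE; edgeR adjusted p 0.00352, and 0.0130 without rPAL replicate 2). A pair of tRNA entries with near-equal counts kept 8319 to 15806 CPM on rPAL against 20467 to 40309 CPM in total RNA. Their log2 fold changes of -1.13 and -1.14 were not called (edgeR adjusted p 0.261 and 0.254). The files do not pair these identifiers with an amino acid or anticodon.

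MicroRNA entries had a lower share in every rPAL library, and those typed as mature held under 0.26% of counts in each. Mature miRNA entries held 3.37%, 3.73% and 2.86% of counts in total RNA and 0.0773%, 0.0868% and 0.253% on rPAL, a 23.9-fold lower mean (20.1-fold without rPAL replicate 2). Precursor miRNA entries, the hairpins from which Dicer cuts the mature strands, held 11.06%, 12.04% and 9.898% in total RNA and 0.336%, 0.535% and 1.03% on rPAL, 17.4-fold lower (16.1-fold without that library). Entries typed only as ncRNA held 3.85% ± 0.478 in total RNA and 0.427% ± 0.219 on rPAL (SD, n = 3 each). No rPAL library overlapped total RNA in any of these 3 classes (exact permutation p of 0.1, the smallest possible). The classes are not independent, since 15 of 44 well-counted mature entries (34.1%) had a precursor entry within 0.2 on the log2 scale in all 3 total libraries. Together they held 18.2% ± 1.97 of counts in total RNA and 1.20% ± 0.669 on rPAL (SD, n = 3 each).

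At the level of entries, edgeR called 83 of 112 mature miRNA entries lower and 1 higher, 116 of 163 precursors lower and 0 higher, and 94 of 121 ncRNA entries lower and 0 higher. The background over all features was 16.3% lower. Without rPAL replicate 2 the falls numbered 13 of 148, 47 of 185 and 36 of 134, against 2.28% lower among all features. Median log2 fold changes were -7.90, -7.90 and -7.91, and -4.67, -5.28 and -5.37 with entries that had no rPAL count placed at a floor of 3 counts over the group. The mature entry that rose had 0.909, 0.12 and 1.73 CPM in total RNA and 19.7, 38.4 and 170.5 CPM on rPAL (log2 fold change 6.03 ± 1.64 SE, edgeR adjusted p 0.0333, and 0.0648 without rPAL replicate 2). RNAcentral entries held 99.5% of the miRNA counts and have no gene name in the tables used, so seeds could not be compared. Of 154 named miRNA genes with a count, 4 were tested and 2 fell, MIR6842 and MIR6803. Neither was called without rPAL replicate 2, where 0 of 9 such genes tested were called. No let-7 gene passed the count filter.

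A named miRNA gene with a high level in a single rPAL library was MIR7977. Its mature miRNA, from RefSeq (GRCh38.p14, chr3:176515103-176515120, plus strand), is shown with its seed, bases 2 to 8, in capitals because a single library sets its mean.
hsa-miR-7977: uUCCCAGCcaacgcacca
MIR7977 stood at 11.8, 5.99 and 9.80 CPM in total RNA and at 0.253, 0 and 163.8 CPM on rPAL. The groups overlapped and the log2 fold change of 2.24 ± 2.20 (SE) was not called (edgeR adjusted p 0.567).

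**Figure D3:**
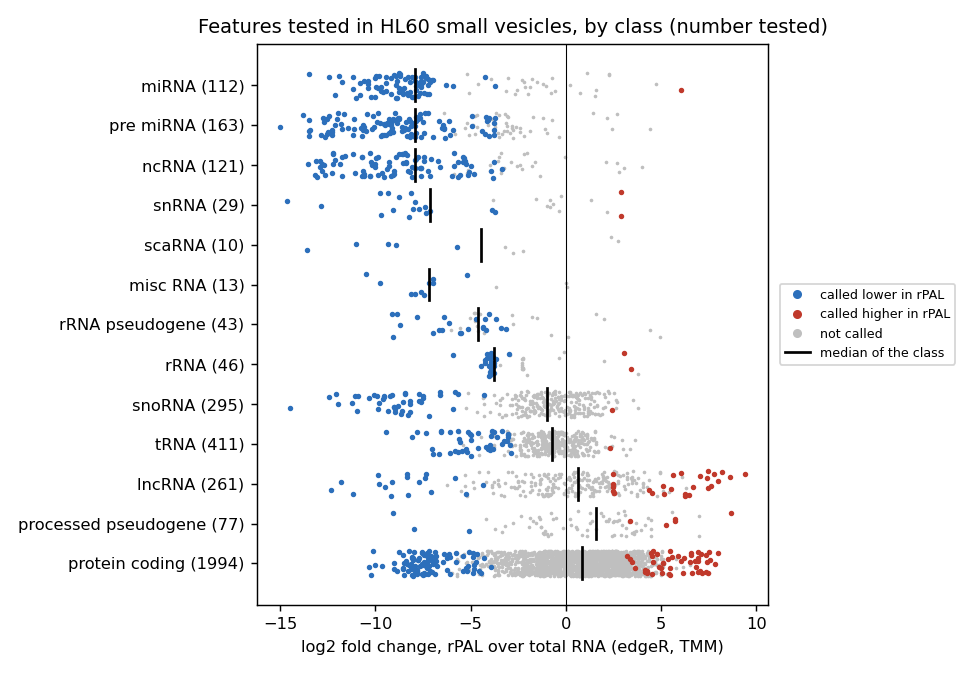
Log2 fold change of rPAL over total RNA for each feature tested, by RNA class with the number tested in brackets. Blue points were called lower, red points higher and grey points not called by edgeR, and the black tick is the class median, near -7.90 for miRNA, precursor and ncRNA entries and 0.87 for protein-coding genes.

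Of the spliceosomal RNA genes, RNU4-2 and RNU4-1 of U4, whose sequences are given above, and RNU5B-1 of U5 fell to no or few counts on rPAL. Most snRNA counts lie on entries without a gene name, so the level of U4 or U5 RNA as a whole is not known. RNU4-2 stood at 476, 475 and 674 CPM in total RNA and had no count in any rPAL library, at least 1755-fold lower with a floor of 3 counts over the group (edgeR adjusted p 0.00352, and 0.0108 without rPAL replicate 2). RNU4-1 stood at 272, 269 and 536 CPM and had 0, 0 and 10.5 CPM on rPAL (log2 fold change -7.13 ± 1.98 SE, edgeR adjusted p 0.0360), a call that was lost without rPAL replicate 2 (adjusted p 0.0723). RNU5B-1 stood at 154, 76.0 and 244 CPM with no rPAL count, at least 512-fold lower (edgeR adjusted p 0.00736, and 0.0192 without that library). The total and rPAL libraries of all 3 genes were far apart. TMC5, a transmembrane channel-like gene, holds the U4 pseudogene RNU4-46P and fell with them, from 115, 68.2 and 223 CPM to 0, 0.296 and 0 CPM (edgeR adjusted p 0.00736).

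Of 18 named spliceosomal snRNA genes and pseudogenes tested, 15 fell and 0 rose by edgeR, against 16.3% lower among all features. Their median log2 fold change was -7.98, or -4.26 at the floor, and 13 had no rPAL count. They included RNU4ATAC, the U4 of the minor spliceosome, at 7.09, 4.79 and 7.59 CPM in total RNA and 0 on rPAL, which was called in none of the 6 fits that left out a library. RNU2-36P, a U2 pseudogene, kept counts on rPAL, at 282, 317 and 401 CPM in total RNA and 26.0, 29.9 and 22.3 CPM on rPAL (log2 fold change -3.72 ± 0.80 SE, edgeR adjusted p 0.0254, and 0.0532 and 0.0586 without rPAL replicates 1 and 2). RNU11-6P was not called, at 123, 28.3 and 2.50 CPM in total RNA and 81.1, 12.1 and 0 CPM on rPAL. Without rPAL replicate 2, edgeR called 2 of 31 such genes, RNU4-2 and RNU5B-1, both lower, against 2.28% lower among all features. By share of counts the whole snRNA class held 1.07% ± 0.448 in total RNA and 0.2197% ± 0.0745 on rPAL (SD, n = 3 each) without overlap. RNAcentral entries hold 85.6% of its counts. Among these, URS000233747B held a mean of 0.861% of all counts in total RNA and 0.0683% on rPAL. That entry fell from 7365, 5358 and 13107 CPM to 514, 390 and 1144 CPM. Its log2 fold change was -3.87 ± 0.75 (SE, edgeR adjusted p 0.0153, and 0.0648 without rPAL replicate 2). A pair with near-equal counts rose, at 61.1 to 108 CPM in total RNA and 311 to 1072 CPM on rPAL. The pair had edgeR adjusted p of 0.0437 and 0.0440 (0.124 and 0.128 without rPAL replicate 2).

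Y RNAs fell as well. RNY1 stood at 80.8, 61.1 and 63.6 CPM in total RNA and 0, 0.296 and 0.42 CPM on rPAL, a log2 fold change of -8.15 ± 1.62 (SE; edgeR adjusted p 0.0168). RNY3 stood at 26.2, 27.0 and 23.8 CPM and 0.505, 0 and 0 CPM (log2 fold change -6.97 ± 1.99 SE, edgeR adjusted p 0.0380). The pseudogene RNY4P6 stood at 149, 45.8 and 77.4 CPM and at most 0.84 CPM on rPAL (edgeR adjusted p 0.00955). Their total and rPAL libraries did not overlap. RNY4 was not called, at 19.6, 14.6 and 13.2 CPM against 0, 0 and 4.62 CPM. Of 9 Y RNA genes and pseudogenes tested, 7 fell and 0 rose, against 16.3% lower among all features, and none of 13 was called without rPAL replicate 2 (2.28% lower among all), where the adjusted p of RNY1 was 0.0648 and that of RNY4P6 0.0586. The call of RNY3 was lost in each of the 6 fits that left out a library (edgeR adjusted p 0.0532 to 0.108). The vault RNA VTRNA1-3, part of the vault particle, overlapped between the groups at 21.3, 37.5 and 20.4 CPM and 4.04, 215 and 90.7 CPM (edgeR adjusted p 0.372).

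Most of the named guide RNAs of the nucleolus and Cajal body that were tested fell, 18 of 25. SCARNA6, a Cajal body guide RNA, stood at 143, 284 and 330 CPM in total RNA and 0, 0.296 and 0 CPM on rPAL (edgeR adjusted p 0.00479, and 0.0152 without rPAL replicate 2). SNORD14E stood at 56.2, 89.6 and 122 CPM and had no rPAL count, at least 289-fold lower (edgeR adjusted p 0.0104, and 0.0291 without rPAL replicate 2). SNORA73B, an H/ACA snoRNA of the class that guides pseudouridylation, stood at 53.7, 57.4 and 23.6 CPM with no rPAL count (edgeR adjusted p 0.0286, and 0.0648 without that library and 0.0548 without total replicate 1). Of 12 H/ACA genes tested 10 fell and 0 rose, of 9 C/D genes 5 fell and 0 rose, and of 4 scaRNA genes 3 fell and 0 rose. Without rPAL replicate 2 these falls numbered 0 of 15, 1 of 9 and 1 of 4, against 2.28% lower among all features. RNAcentral entries, most of them without a name, hold 97.0% of the snoRNA counts. Over all 295 snoRNA entries 45 fell (15.3%, near the background of 16.3%), 1 rose and the median log2 fold change was -1.014, while the class share was 1.504% ± 0.248 in total RNA and 0.515% ± 0.0962 on rPAL (SD, n = 3 each) without overlap.

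Of 21 genes that host snoRNAs in their introns, 7 fell and 1, not described here, rose, against 16.3% lower and 2.51% higher among all features. When rPAL replicate 2 was left out, 4 of 24 fell and 1 rose, against 2.28% lower and 0.313% higher among all features. SNHG5, which holds SNORD50B, stood at 181, 591 and 582 CPM in total RNA and 0.505, 0 and 0 CPM on rPAL (log2 fold change -11.19 ± 1.58 SE, edgeR adjusted p 0.00501, and 0.0154 without rPAL replicate 2). SNHG3, which holds SNORA73A and SNORA73B, stood at 108, 91.9 and 50.2 CPM with no rPAL count, and SNHG25, which holds SNORA50C and SNORD104, at 84.0, 68.1 and 96.6 CPM with at most 0.253 CPM on rPAL. HSPA8, the constitutive HSC70 chaperone that holds SNORD14C, SNORD14D and SNORD14E, stood at 801, 750.2 and 2057 CPM and 74.1, 0.296 and 36.5 CPM (log2 fold change -5.26 ± 1.54 SE, edgeR adjusted p 0.0437, and 0.0417 without that library). GAS5, SNHG1 and RACK1 also fell, though not without rPAL replicate 2 (0.0648 for GAS5 and RACK1, 0.0651 for SNHG1). SNHG1 and RACK1 were called in none of the 6 fits that left out a library, GAS5 only in that without rPAL replicate 3. HSPA8 was not called without rPAL replicate 3 or total replicate 3. The counts do not separate a host transcript from a small RNA inside it on the same strand, and 60.5% of protein-coding counts lay in genes holding such a small RNA. That share was 30.7% without rPAL replicate 2 and 17.9% without PCNA.

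**Figure D4:**
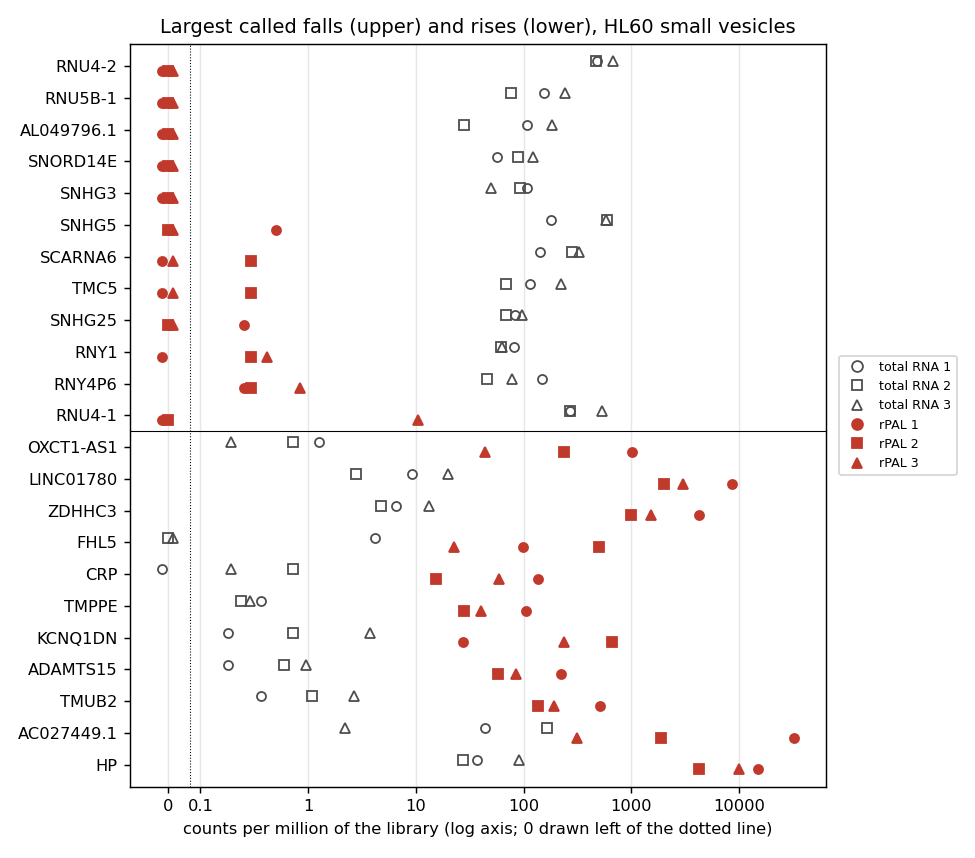
CPM of the 12 named features with the largest falls (upper rows) and 11 of the 12 with the largest rises (lower rows) in each library, on a log axis with 0 drawn left of the dotted line. Open grey symbols are total RNA and red symbols rPAL, and 5 of the 12 falls, RNU4-2 to SNHG3, have no count in any rPAL library.

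Long noncoding RNA had overlapping shares of counts in the 2 groups, while its leading entries differed. The class held 15.83%, 13.04% and 17.87% in total RNA and 19.8%, 8.11% and 18.1% on rPAL (exact permutation p of 1.0). The groups no longer overlapped without rPAL replicate 2, with a difference of 3.39 points (exact permutation p of 0.2, the smallest for 2 against 3). In total RNA most of it was ENSG00000286171.1, an entry without a symbol in the annotation used, at 13.02%, 9.91% and 16.8% of all counts. On rPAL this entry fell to 0.248%, 0.148% and 0.386%, a log2 fold change of -5.82 ± 0.67 (SE; edgeR adjusted p 0.00352, and 0.0108 without rPAL replicate 2). LINC01766 at chr19:35597907-35601501 (GRCh38) went the opposite way, from 457, 663 and 490.2 CPM to 101000, 17718 and 53882 CPM. Its log2 fold change was 6.65 ± 0.86 (SE; edgeR adjusted p 0.00382, and 0.00999 without rPAL replicate 2), and it held 5.75% ± 4.18 of rPAL counts (SD, n = 3). Without ENSG00000286171.1 the lncRNA share was 2.35% ± 1.09 in total RNA and 15.1% ± 6.24 on rPAL (SD, n = 3 each). Both shares include a set of entries with near-equal counts, described next, which may count the same reads more than once.

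A set of 6 lncRNA entries with near-equal counts held 0.722%, 1.83% and 0.403% of counts in total RNA and 4.51%, 3.22% and 10.4% on rPAL. These sums may count the same reads more than once. The set includes FP671120.4 at chr21:8254592-8255514 and FP236383.2 at chr21:8393419-8394341 on GRCh38, both annotated on the minus strand. The class lncRNA is that of the count table. As the strand setting of the counting is not given, reads of other transcripts at these places cannot be set apart from these entries. Their log2 fold changes were 2.50 ± 0.75 and 2.48 ± 0.75 (SE), close to the threshold (edgeR adjusted p 0.0468 and 0.0477), and neither was called in any of the 6 fits that left out a library (0.0648 for both without rPAL replicate 2). AC027449.1 differed widely between rPAL libraries, at 32455, 1879 and 316 CPM against 43.5, 166 and 2.21 CPM in total RNA (edgeR adjusted p 0.0403). It was called in 2 of the 6 fits that left out a library and lost in 4, among them that without rPAL replicate 2 (0.0648). Of 261 lncRNA entries tested 27 rose and 18 fell, against 2.51% and 16.3% of all features, with a median log2 fold change of 0.62. Of 525 tested without rPAL replicate 2, 5 rose and 5 fell, against 0.313% and 2.28% of all features, and the median was -0.46.

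Among protein-coding genes, HP was the most abundant that rose. HP encodes haptoglobin, a haemoglobin-binding plasma protein made mainly in the liver. It stood at 36.9, 27.6 and 91.1 CPM in total RNA and 15063, 4249.9 and 9920.0 CPM on rPAL, with all rPAL libraries far above total RNA. The log2 fold change was 7.35 ± 1.011 (SE; edgeR adjusted p 0.00473) and 7.63 ± 0.83 without rPAL replicate 2 (adjusted p 0.0108). CRP, the acute-phase C-reactive protein, rose too, from 0, 0.719 and 0.192 CPM to 137, 15.4 and 59.2 CPM (edgeR adjusted p 0.0286), and was not called in any fit that left out a library (0.0648 without rPAL replicate 2). GPX3 also rose, from 0.182, 0.359 and 2.11 CPM to 18.2, 196 and 54.6 CPM (edgeR adjusted p 0.0313, and 0.0851 without rPAL replicate 2). ALB, which encodes serum albumin, was at 0 in all 6 libraries. APOA1 had at most 0.182 CPM in total RNA and 0 on rPAL. The part of RNA from other cells in these rises was not tested.

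ZDHHC3, a palmitoyltransferase of the Golgi, stood at 6.55, 4.79 and 13.3 CPM in total RNA and 4275, 985 and 1517 CPM on rPAL (log2 fold change 7.96 ± 1.11 SE, edgeR adjusted p 0.00498, and 0.0108 without rPAL replicate 2). LINC01780, on another chromosome, stood at 9.28, 2.76 and 19.8 CPM and 8632, 2023 and 2999 CPM (log2 fold change 8.59 ± 1.27 SE, edgeR adjusted p 0.00561). The 2 kept a nearly fixed ratio, with an SD of 0.0435 on the log2 scale over 19 rPAL libraries of the series. TMUB2, ADAMTS15 and TMPPE, at 28.1 to 518 CPM on rPAL and at most 2.69 CPM in total RNA, also kept fixed ratios to each other. TMUB2 was called in all 6 fits that left out a library, ADAMTS15 in 3 and TMPPE in 2. Of 60 features that rose with no overlap and a mean of 50 CPM or more on rPAL, 21 were in such fixed-ratio pairs. Sharing of reads was not tested, and these 21 may not be separate observations.

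OXCT1-AS1, an antisense transcript, had the highest fold change of the named features, from 1.27, 0.719 and 0.192 CPM to 1020, 236 and 43.7 CPM (log2 fold change 9.39 ± 1.58 SE, edgeR adjusted p 0.00850, and 0.0244 without rPAL replicate 2). The strand setting of the counting is not given in the sources used here, so reads of OXCT1 cannot be set apart from it. FHL5, KCNQ1DN and CRP were also among the 12 largest rises, and none of these 3 was called without rPAL replicate 2.

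Among the smaller rises were 3 mRNAs of nuclear proteins, picked after their values were seen. MKI67, which encodes the proliferation antigen Ki-67, stood at 6.002, 4.91 and 7.30 CPM in total RNA and 96.6, 74.2 and 216 CPM on rPAL (log2 fold change 4.24 ± 0.99 SE, edgeR adjusted p 0.0286). NOP56, a core protein of C/D snoRNPs, stood at 13.1, 15.3 and 27.2 CPM and 259, 173 and 184 CPM (log2 fold change 3.35 ± 0.87 SE, edgeR adjusted p 0.0288), and DNMT1, the maintenance DNA methyltransferase, at 13.5, 5.51 and 14.8 CPM and 109, 76.0 and 150.4 CPM (edgeR adjusted p 0.0478). Their rPAL libraries all lay above total RNA, including rPAL replicate 2. None of the 3 was called by edgeR in any of the 6 fits that left out a library (adjusted p 0.0648 for MKI67 and NOP56 and 0.0719 for DNMT1 without rPAL replicate 2). Over all 1994 protein-coding genes 50 rose and 102 fell (5.12%, against 16.3% of all features), and the median log2 fold change was 0.87. Without rPAL replicate 2 that median was -0.20, with 9 rises and 2 falls among 3543 genes, against 0.313% higher and 2.28% lower among all features.

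PCNA set the protein-coding share of rPAL replicate 2. PCNA encodes the sliding clamp of DNA replication, lies at chr20:5114953-5126626 on the minus strand (GRCh38) and holds the annotated small RNA gene RF00568 on the same strand. Its share was 3.29%, 0.00036% and 0.000567% in total RNA and 0.0606%, 40.06% and 1.44% on rPAL, so the groups overlapped. The log2 fold change of 4.32 ± 2.95 (SE) was not called (edgeR adjusted p 0.409), and it was -0.46 ± 2.73 without rPAL replicate 2 (adjusted p 0.922). Without total replicate 1, where PCNA also stood out, it was 14.39 and passed the threshold. The protein-coding share was 9.07%, 2.33% and 2.30% in total RNA and 8.69%, 47.0% and 6.95% on rPAL. With PCNA taken out of the class but kept in the totals it was 3.47% ± 2.002 against 7.04% ± 1.56 (SD, n = 3 each). With PCNA left out of the totals too it was 3.54% ± 2.12 against 8.62% ± 3.02 (SD, n = 3 each). The groups overlapped in all these versions. Of the 3619 features tested, 200 (5.53%) had rPAL counts in replicate 2 only, 142 of them protein-coding, compared with 283 in replicate 1 only and 98 in replicate 3 only.

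Messenger RNA groups of translation, mitochondria and chromatin are given here by their counts of calls, to be read against 2.51% higher and 16.3% lower among all features. Of 36 large-subunit ribosomal protein mRNAs tested 1 rose (RPL28) and 5 fell, and of 20 small-subunit mRNAs 1, not described here, rose and 2 fell (RPS21 and RPS29). Their median log2 fold changes were -0.29 and 0.13, near the -0.12 of all features. Of 13 mitochondrial mRNAs 1 fell, MT-ND6, and of 4 mitochondrial tRNAs 2 fell, MT-TS1 and MT-TE. Of 28 histone mRNAs HIST1H2BL rose and HIST1H1C fell. RPL28, RPS21, RPS29, MT-ND6, MT-TS1, MT-TE, HIST1H2BL and HIST1H1C were not called without rPAL replicate 2.

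The same contrast in large vesicles of HL60 and in small vesicles of KG1a, a more primitive acute myeloid leukaemia line, was used to ask where the HL60 small vesicles differed. Each had 3 total and 3 rPAL libraries of its own, and no library is shared. Their own contrasts gave 1006 calls of 3219 in HL60 large vesicles (31.3%, with 12.3% higher and 18.9% lower) and 537 of 8128 in KG1a small vesicles (6.61%, with 0.48% higher and 6.13% lower). The rRNA share was 5.83% ± 0.969 in total RNA and 54.8% ± 11.5 on rPAL in HL60 large vesicles, and 34.8% ± 8.97 and 61.8% ± 2.88 in KG1a small vesicles (SD, n = 3 each), and these differences in share between preparations were not tested. Against HL60 large vesicles, edgeR called 0 of 5644 differences in the rPAL effect (0.0%), with 852 at an unadjusted p under 0.05 and a smallest adjusted p of 0.235, while DESeq2 called 250. RNU4-2 had 9.32, 37.2 and 0 CPM in the rPAL libraries of large vesicles and none in those of small ones. The difference was -8.25 ± 2.28 (SE, log2, edgeR adjusted p 0.235), a size that depends on the fit since small vesicles had no rPAL count. RNU5B-1 had no rPAL count in large vesicles either, against 167.9, 98.54 and 57.55 CPM in their total RNA (edgeR adjusted p 0.00441). Its absence on rPAL was thus shared by both HL60 preparations. HP rose by 7.44 on the log2 scale in large vesicles, with a difference of -0.41 ± 1.22 (SE; edgeR adjusted p 0.991), and LINC01766 by 6.88, with a difference of -0.59 ± 1.03 (adjusted p 0.929).

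Against KG1a small vesicles, edgeR called 37 of 9700 differences (0.381%), 4 higher in HL60 (0.0412%) and 33 lower (0.34%). RNU4-2 stood at 49.8, 19.4 and 0 CPM on rPAL in KG1a and RNU5B-1 at 26.7, 68.2 and 0 CPM, against no count in HL60. The differences were -9.48 ± 2.08 and -10.60 ± 2.34 (SE, log2, edgeR adjusted p 0.0148 and 0.0151). With no HL60 rPAL count, their sizes depend on the fit and were not recomputed at the floor. Both had counts in 2 of 3 KG1a rPAL libraries only, and both calls were lost, by edgeR, without HL60 rPAL replicate 1 (adjusted p 0.0566 and 0.0542), without HL60 rPAL replicate 2 (0.0544 and 0.0557), without KG1a rPAL replicate 1 (0.0989 and 0.0633) and without KG1a rPAL replicate 2 (0.195 and 0.240). Without HL60 rPAL replicate 2 the count of calls was 12. KG1a rPAL replicate 3 stood apart from the other 2, with HP at 160, 187 and 15600 CPM and LINC01766 at 2556, 3446 and 115400 CPM in KG1a rPAL replicates 1, 2 and 3, and without it the count was 66. The rises of HP and LINC01766 were not shown to differ between the lines (differences of 2.35 ± 1.38 and 1.74 ± 1.17, SE, log2; edgeR adjusted p 0.389 and 0.462).

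**Figure D5:**
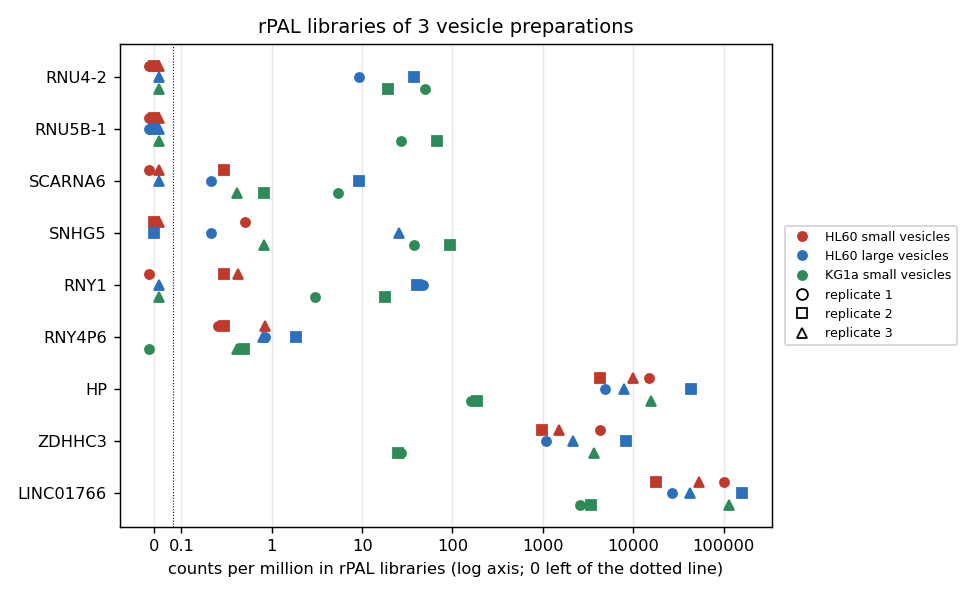
CPM of 9 named features in the rPAL libraries of HL60 small vesicles (red), HL60 large vesicles (blue) and KG1a small vesicles (green), with 1 symbol for each replicate and 0 drawn left of the dotted line of the log axis. RNU4-2 has no count in the 3 HL60 small-vesicle libraries and up to 49.8 CPM in KG1a, and KG1a replicate 3 lies far above its 2 companions for HP, ZDHHC3 and LINC01766.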

How the data were processed

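The submitters deposited 1 table of raw counts per feature. Per the submitters' processing notes, the authors aligned reads with Bowtie2 to GRCh38 (hg38). The counter, the annotation, the strand setting and the handling of reads with several hits are not given in the sources used here. Per the labels' protocols, RNA was extracted with RNAzol and Zymo columns, and MGIEasy small RNA libraries were size-selected and amplified by PCR. All 38 columns matched a labelled sample. The table lists 90127 features, of which 86401 are Ensembl and 3726 RNAcentral entries. GENCODE 29 gave symbols and coordinates to 57355, and features without a symbol held 80.2% of the counts in these 6 libraries.

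Only the 6 libraries were fitted, in edgeR 4.0.16 (R 4.3.3), with TMM scaling, filterByExpr, the robust quasi-likelihood test and Benjamini-Hochberg adjustment over all features tested, called under 0.05. SE is the log2 fold change divided by the square root of F. Differences between preparations were interaction contrasts over 12 libraries. CPM values and shares are per library total, while fold changes follow TMM scaling. Where a group had no count, 3 counts summed over that group stood in as the floor. Floors cover counting error only. Shares were compared by two-sided exact permutation tests in Python 3.11.15 with SciPy 1.17.1. The fitting step was tested on simulated data with the same spread in both groups. That checked the code only, since the real rPAL replicates agreed less than those of total RNA, and gives no error rate for these libraries. Alternatives were other scalings and filters, DESeq2 1.42.0, a replicate block, left-out libraries and, chosen after seeing the data, 1 entry per read-sharing group, rRNA entries left out of the fit and libraries of the other preparations left out. Entries were grouped as read-sharing when their log2 levels lay within 0.2 of each other throughout. The sharing itself was not tested.

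The comparison, gene lists and panel were chosen with earlier results of these data known. Named features are the 12 largest falls and rises that had a symbol, passed edgeR's test, reached a mean of 50 CPM in the higher group and showed no overlap, the 12 most abundant features of each group, a panel of 36 symbols, of which 35 were found and 13 were listed at 0 in all 6 libraries, and for differences between preparations up to 6 called symbols in each direction with a mean of 50 CPM in a group. Some results and sequences are not reported here. Other genes come from the lists or were picked once their values had been seen. Primitive, fibroblast or epithelial, and lymphoid marker lists each summed to at most 3.84 CPM in a library, and small RNA markers of other tissues were at 0.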

Additional observations from a re-analysis of the deposited data

Results flagged for a closer look

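Of the differences in the rPAL effect between HL60 and KG1a small vesicles, 37 of 9700 passed the interaction test of edgeR, and the 6 named here were those with a symbol and the smallest adjusted p at a mean of 50 CPM or more in a group. All 6 were lower in HL60. They were RNU4-2 (-9.48 on the log2 scale), RNU5B-1 (-10.6), CCDC187 (-7.40), AL049796.1 (-10.49), NUDT11 (-12.84) and SNHG5 (-6.75), with edgeR adjusted p of 0.0148, 0.0151, 0.0208, 0.0246, 0.0446 and 0.0446.

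RNU4-2, RNU5B-1 and AL049796.1 had no count in the 3 HL60 rPAL libraries, and SNHG5 had a count in 1 of them. SNHG5 stood at 37.2, 93.9 and 0.826 CPM in the KG1a rPAL libraries. For CCDC187, a coiled-coil protein gene, a single HL60 total RNA library led the difference, at 3767 CPM against 49.5 and 15.1 CPM in the other 2. NUDT11 averaged 63.4 ± 106 CPM (SD, n = 3) in HL60 total RNA and had no count in HL60 rPAL. Because RNU4-2, RNU5B-1, AL049796.1 and NUDT11 lack HL60 rPAL counts, the sizes of their differences depend on the fit. These sizes were not recomputed at the floor. All 6 calls were lost without HL60 rPAL replicate 2 (edgeR adjusted p 0.0544 to 0.0778), without KG1a rPAL replicate 1 (0.0633 to 0.102) and without KG1a rPAL replicate 2 (0.156 to 0.258). Of the 37 differences, 10 had counts in all 4 groups, and 13 were of features under 5 CPM in every KG1a small-vesicle library.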

How the results depend on the processing

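The 681 features called by edgeR became 1175 with DESeq2, 226 with no count filter, 3108 with all 38 libraries in the fit and 322 with the replicate block. They became 149 to 377 when a library was left out, lowest without rPAL replicate 2. The other 7 alternatives gave 620 to 985. The median log2 fold change of all features, -0.12, was -0.35 with DESeq2's size factors in edgeR, -0.66 with rRNA entries left out, -0.89 without rPAL replicate 2, -1.33 with the replicate block, -1.75 with all 38 libraries and -1.88 with no count filter. The 37 differences from KG1a small vesicles became 213 with DESeq2, 16 with no TMM scaling, 4 with the replicate block and 3 to 95 when a library was left out, lowest without KG1a rPAL replicate 2 and highest without HL60 total replicate 3. Without KG1a rPAL replicate 1 they were 7, without total replicates 2 and 3 of KG1a 18 and 24. The 0 differences from HL60 large vesicles became 250 with DESeq2 and 1 with the replicate block, and stayed at 0 without each of the 12 libraries. With rRNA left out of the totals, the rPAL difference in share was -12.64 points for precursor miRNA, -3.98 for ncRNA, -3.93 for miRNA, 15.15 for lncRNA, 1.04 for RNase P RNA and 0.0705 for SRP RNA. The lncRNA difference with all counts was -0.23 points, and 3.39 without rPAL replicate 2. The cause of these changes was not tested.

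Of 822 recomputed fold changes over 49 named features, 703 kept direction and call or stayed uncalled, 113 lost the call, 6 gained it and 0 called values reversed. With the block none of the 6 named differences from KG1a was called (edgeR adjusted p 0.489 to 1.0). Of 89 recomputed differences from KG1a over 6 named features, 38 kept the call and 51 lost it. Same-numbered libraries did not deviate together, with correlations of -0.142, 0.00107 and -0.0363, so the replicate numbers were not taken as pairs. The rPAL libraries are the shallowest, and 3 counts in them correspond to 0.758 to 1.26 CPM. Features near that level could not be told from absent.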
